A study of Mus musculus with 4 samples.

Results

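The collagen genes were taken as the protein-coding genes of the GENCODE M1 annotation whose symbol reads Col, a number, a, and a number, without Col2a1, a cartilage collagen that is not described here. This gave 42 of 22367 protein-coding genes on the chromosomes compared. By type number, 10 of them code for fibrillar collagens (types I, III, V, XI, XXIV and XXVII), 6 for type IV, the basement membrane collagen, and 26 for other types. The choice used symbols alone and no measured value.

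Chromatin accessibility had been profiled by ATAC-seq in cells from forelimb and hindlimb of E11.5 mouse embryos, on a c57bl6.J X 129S6.sv background. ATAC-seq uses the Tn5 transposase, which inserts adaptors where DNA is open. The mutant embryos carried a stop cassette insertion (3xpA in the titles), whose position and zygosity the labels do not give, and the controls were wild type at the locus. There were 2 libraries of each genotype, and the cells of both had been fixed before transposition. The labels do not say whether the libraries came from separate embryos or litters, and both wild-type lists name their peaks as sub-numbers of a single replicate, so the spread within a genotype may be technical.

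Collagens are extracellular matrix proteins built from chains that wind into a helix. Fibrillar collagens form the fibrils of connective tissue, bone and cartilage, type IV forms the sheet-like network of basement membranes, and the FACIT types sit on the surface of fibrils. The limb bud at this stage is a mesenchyme covered by ectoderm, in which the first cartilage condensations form. An open start shows that a promoter is accessible in some cells of the tissue, and says nothing by itself about how much of the gene is transcribed.

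Each deposited list gives peak summits of 1 bp with the authors' score, read here as −log10 of a q-value. The stop cassette lists held 79083 and 107827 summits and the wild-type lists 51701 and 68471 (replicates 1 and 2). A start summit is a summit within 1 kb of any annotated transcript start of a gene. The percentile is the rank of its score in its own list, from 0 for the weakest to 100 for the strongest. With several start summits the strongest was taken. The lists hold no read counts, so depth is unknown, and in bulk tissue fewer cells with an open site and less opening per cell cannot be told apart. Start summits were found for 6 of 8 limb mesenchyme genes in all 4 lists (not in any list for Tbx5) and for 0 of 4 liver genes in any. Of the remaining marker genes, Epcam and Cdh1 of the ectoderm, Sox9 and Acan of cartilage, Kdr of the endothelium and Gata1 and Tal1 of blood had one in all 4 lists, and Krt5, Krt14, Matn1, Myog, Pecam1, Cdh5, Tie1 and Ptprc in none. Of 4 muscle genes, 0 had one in all lists.

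Most collagen genes had a start summit in each list. A start summit was found for 31 of the 42 genes in stop cassette replicate 1, 35 in replicate 2, 27 in wild-type replicate 1 and 30 in replicate 2. Over all protein-coding genes, the shares were 61.5%, 64.5%, 59.1% and 61.6% in the same order, against 73.8%, 83.3%, 64.3% and 71.4% of the collagen genes. In all 4 lists, 25 collagen genes had a start summit (59.5%, against 57.5% of all genes), and 7 had none in any list (16.7%, against 34.5%). Between these extremes, 2 genes had one in 1 list, 3 in 2 lists and 5 in 3 lists. Over all protein-coding genes, 1 list accounted for 2.48%, 2 lists for 2.37% and 3 lists for 3.15%.

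The mean excess over all protein-coding genes was 11.6 ± 5.69 percentage points (SD over the 4 lists), and it was positive in 4 of 4 lists. When only the upper 50% of each list was used, the difference was -3.37 ± 10.1 percentage points, with 11.3 in stop cassette replicate 2 and -7.27, -11.6 and -5.87 in stop cassette replicate 1 and the wild-type lists. With a score above 5 in every list it was -0.246 ± 10.8, and 14.7 in stop cassette replicate 2. The sign of the mean excess thus changed once weak summits were left out, and stop cassette replicate 2 kept an excess. Collagen genes are also long, with a median of 114.4 kb against 15.4 kb. Of the 7353 protein-coding genes longer than 30 kb, 81.9% ± 2.09 (SD, n = 4 lists) had a start summit, more than the 73.2% ± 7.87 of the collagen genes.

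The genotypes were then compared by the number of collagen genes with a start summit. The stop cassette lists gave a start summit to 33.0 ± 2.83 collagen genes and the wild-type lists to 28.5 ± 2.12 (SD, n = 2 each), and the values did not overlap. The difference of 4.5 genes had a two-sided exact permutation p of 0.333, the smallest that 2 libraries against 2 allow. It was not kept at equal list length. With every list reduced to its 51701 highest scores, the counts were 22, 30, 27 and 29 (stop cassette replicates 1 and 2, then wild-type replicates 1 and 2), and the difference was -2.0. A part played by depth was not tested, because the lists give no read counts.

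The start summits of collagen genes ranked low. Their median percentile was 60.6, 79.9, 72.2 and 74.5 in stop cassette replicates 1 and 2 and wild-type replicates 1 and 2. Over all protein-coding genes with a start summit it was 90.0, 92.6, 85.5 and 88.6, and over those longer than 30 kb it was 89.8, 93.0, 86.1 and 89.1. The collagen median was the lowest of these sets in each of the 4 lists. Over the 25 collagen genes with a start summit in all lists, the medians were 61.8, 82.2, 76.0 and 77.7. These differed between genotypes by -4.92 percentile points (stop cassette minus wild type, two-sided exact permutation p = 1), and by 5.29 without stop cassette replicate 1.

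The gap to other genes was widest in stop cassette replicate 1. Among the 25 collagen genes with a summit in all lists, that library gave the lowest percentile for 15 (60.0%), whereas it did so for 22.6% of the 12860 protein-coding genes of the same kind. Stop cassette replicate 2 gave the highest percentile for 19 of 25 (76.0%, against 54.9%). Both stop cassette percentiles lay above both wild-type percentiles for 4 of the 25 collagen genes, Col1a1, Col5a2, Col13a1 and Col18a1, against 41.2% of all such genes. The reverse held for 1, Col24a1, against 4.34%. These shares are descriptions of 4 lists that differ in length, and no test was made over genes.

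**Figure D1:**
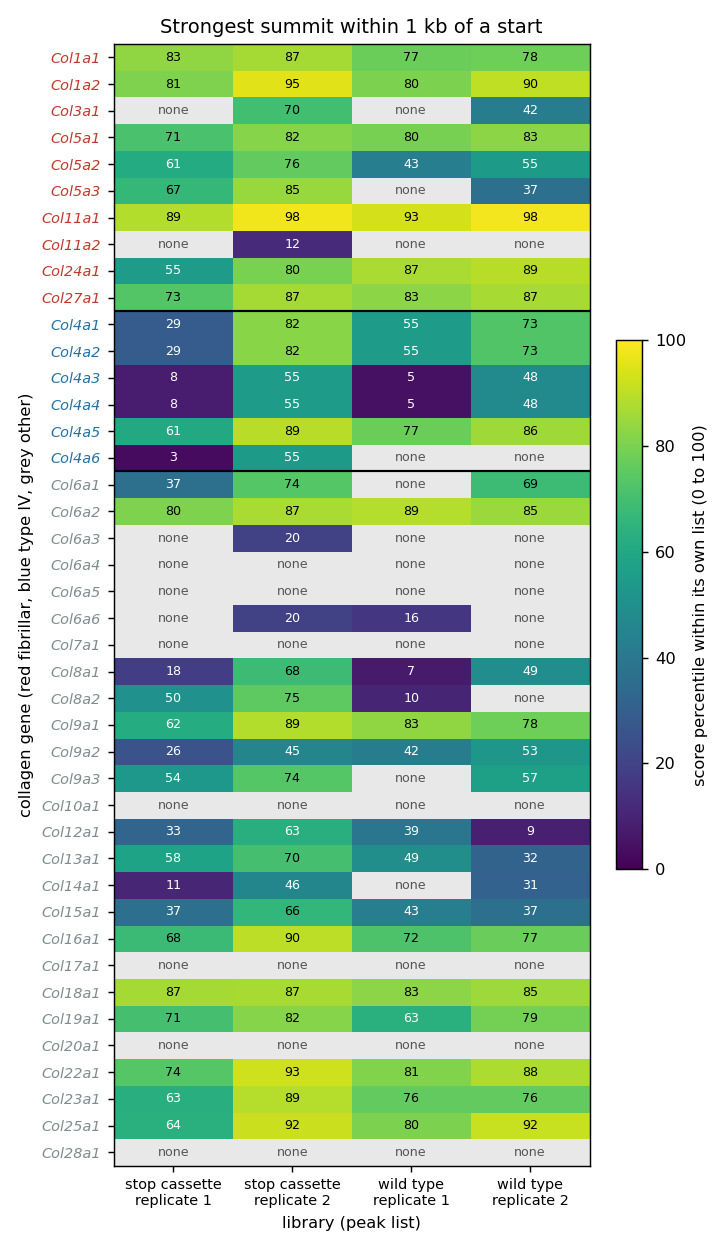
Percentile of the strongest summit within 1 kb of an annotated start for each of the 42 collagen genes (rows: fibrillar, type IV, other) in each of the 4 peak lists (columns), with "none" where no summit was found. Col11a1 is at 89 or above in all lists when rounded, and 7 genes have no value in any list.

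Among the fibrillar genes, Col11a1 had the strongest start of all 42. Its product, the alpha1 chain of type XI, is a minor component of cartilage fibrils. The start summit of Col11a1 (ENSMUSG00000027966.10, mm9 chromosome 3, 113733458 to 113923636, plus strand) ranked at percentiles 88.6 and 97.7 with the stop cassette against 93.4 and 98.1 in wild type. The mean was 94.5 ± 4.45 (SD, n = 4), and the genotypes overlapped. The summit lay 140, 142, 103 and 102 bp before the gene's 5′ end. Those bases are shown because all 4 lists place their strongest summit inside them. The 250 bases before the 5′ end (mm9, plus strand, chr3:113733208-113733457) hold the letters GGGCGG of the GC box at 110 and 19 bases before the start, and CCAAT, read on the opposite strand as ATTGG, at 79. Capitals mark these matches.
Col11a1: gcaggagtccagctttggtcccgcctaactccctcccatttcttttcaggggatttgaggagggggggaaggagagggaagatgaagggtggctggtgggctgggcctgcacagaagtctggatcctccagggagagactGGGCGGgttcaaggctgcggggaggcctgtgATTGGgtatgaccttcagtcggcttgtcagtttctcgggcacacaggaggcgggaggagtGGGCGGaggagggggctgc

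The type I genes, whose chains form the main fibril of bone, skin and tendon, were open in every list. Col1a2 (ENSMUSG00000029661.9, chromosome 6, 4454814 to 4491543, plus strand) ranked at 80.6 and 95.5 in the stop cassette lists and 80.2 and 90.5 in the wild-type lists. The library pairs interleave, with both replicate 2 values the higher ones. Its strongest summits lay 136, 90, 62 and 105 bp downstream of the start of its longest protein-coding transcript, which begins 679 bp inside the annotated gene. Col1a1 (ENSMUSG00000001506.9, chromosome 11, 94797538 to 94814356, plus strand) ranked at 83.3 and 86.6 with the stop cassette against 77.5 and 77.7 in wild type. Its strongest summits lay 1000, 792, 1232 and 1000 bp downstream of the start of its longest transcript, with the strongest of all in an intron. Each list held 2 start summits at Col1a1, both inside the gene and none before its 5′ end. A processed transcript of Col1a1 begins 1462 bp from the 5′ end, and its window covers the intronic summits.

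Type V chains join type I in the same fibrils. Col5a1 ranked at 71.2 and 82.0 in the stop cassette lists and 79.5 and 82.7 in the wild-type lists, and a lincRNA, 2810430I11Rik, starts 627 bp away. Col5a2 ranked lower, at 61.3 and 76.1 against 42.6 and 54.5, and its genotypes did not overlap. Col5a3 had a start summit in 3 lists, at 66.6 and 84.7 with the stop cassette against 36.9 in wild-type replicate 2. In wild-type replicate 1 the nearest summit to Col5a3 was 16083 bp away.

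Col3a1, the partner of type I in soft tissue, had a start summit in both replicate 2 lists alone, at the 69.9 percentile with the stop cassette against 42.0 in wild type. Over all protein-coding genes this pattern occurred in 0.921%. In the replicate 1 lists the nearest summit to a Col3a1 start was 2632 bp away in stop cassette and 174808 bp away in wild type. Col11a2, another chain of type XI, had a start summit in stop cassette replicate 2 alone, at 11.8 (1.65% of all genes had one in that list only). The remaining fibrillar genes, Col24a1 and Col27a1, were open in all lists. Col24a1 ranked at 54.8 and 79.9 against 87.4 and 89.2, the single case among the 25 genes in which both wild-type values lay above both stop cassette values. Col27a1 ranked at 73.2 and 86.5 against 82.8 and 87.0. Its strongest summits lay 1352, 2126, 1263 and 1361 bp downstream of the annotated 5′ end, and the longest protein-coding transcript begins 1431 bp from that end. The 5′ end itself belongs to a retained intron transcript.

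The 6 type IV genes lie as 3 head-to-head pairs. The 5′ ends are 21 bp apart in Col4a1/Col4a2, 72 bp in Col4a3/Col4a4 and 1309 bp in Col4a5/Col4a6, so the genes of the first pairs share their start summits and count as one observation each. Col4a1 and Col4a2, the chains of nearly all basement membranes, ranked at 29.2 and 82.2 in the stop cassette lists and at 55.2 and 72.9 in the wild-type lists. Col4a3 and Col4a4, chains best known from the kidney glomerulus, ranked at 7.55 and 55.2 against 4.54 and 47.5. Their replicate 1 values lie near the bottom of the lists in both genotypes. Col4a5 (chromosome X, 137909928 to 138123778, plus strand) had the strongest start of the family, at 60.6 and 89.3 against 77.3 and 85.9.

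Col4a6 (chromosome X, 137599946 to 137908619, minus strand) was the 1 collagen gene with a start summit in the stop cassette lists (3.08 and 54.6) and not in wild type. Over all protein-coding genes, 1.03% showed that pattern, and 0.0537% the opposite one, which no collagen gene showed. The summits nearest to the Col4a6 start in the wild-type lists lay 1333 and 1320 bp upstream, at the start of Col4a5, just outside the limit. At equal list length, with every list reduced to its 51701 highest scores, only stop cassette replicate 2 kept a start summit at Col4a6.

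**Figure D2:**
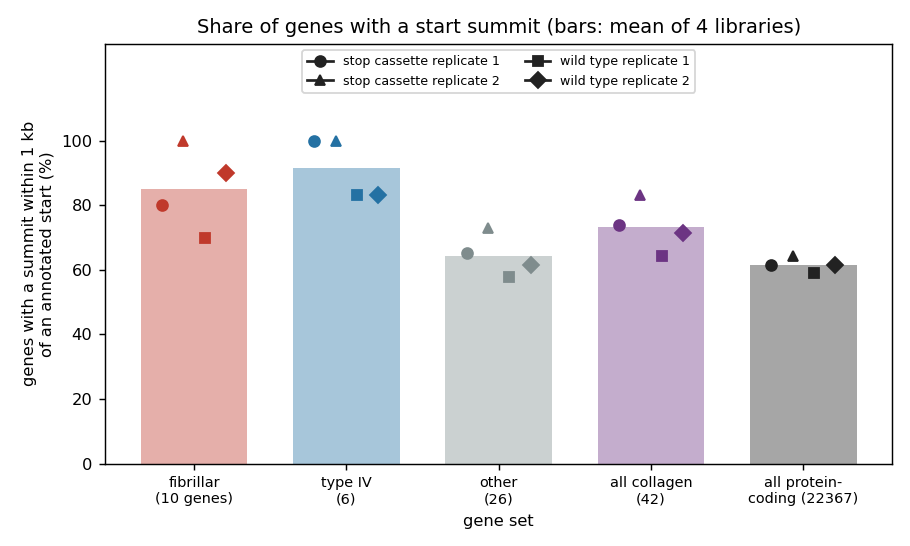
Share of genes (%) with a summit within 1 kb of an annotated start in each library (symbols) and the mean of the 4 libraries (bars), for the collagen classes and all protein-coding genes. Fibrillar genes range from 70.0% to 100% and type IV genes from 83.3% to 100%, above the other collagens in every list.

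By class, fibrillar genes had start summits in 8, 10, 7 and 9 of 10 genes and type IV genes in 6, 6, 5 and 5 of 6 (stop cassette replicates 1 and 2, wild-type replicates 1 and 2). The other types had them in 17, 19, 15 and 16 of 26. The fibrillar share exceeded that of the other types by 20.6 ± 8.29 percentage points (SD over the 4 lists) and the type IV share by 27.2 ± 5.38, each in 4 of 4 lists. No test was made over genes, which are not replicates. At equal list length the type IV difference was 15.1 percentage points on average, -33.3 in stop cassette replicate 1 and 42.3, 25.6 and 25.6 in the other lists. With the upper 50% of each list it was 10.9 on average, -25.6 in stop cassette replicate 1 and 42.3, 19.2 and 7.69 in the other lists. Counting each pair with shared starts once, an alternative chosen after seeing the data, start summits stood at 4, 4, 3 and 3 of 4 type IV loci. The difference from the other types was then 23.1 ± 9.55 (SD over the 4 lists). The fibrillar difference was 31.7 percentage points with the upper 50%. Within the 25 genes open in all lists, the 7 fibrillar genes had median percentiles of 73.2, 86.5, 80.2 and 87.0, and the 5 type IV genes, which are 3 start loci, 29.2, 82.2, 55.2 and 72.9.

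Among the other types, the FACIT genes were mostly open (8, 8, 6 and 8 of 9 in the same order of lists) and the type VI genes, which form beaded filaments around cells, mostly not (2, 4, 2 and 2 of 6). Col6a2 was the strong exception within type VI, at 80.5 and 87.3 with the stop cassette against 88.8 and 85.0 in wild type. Col6a1, its neighbour on chromosome 10, ranked at 36.8 and 73.6 with the stop cassette against 68.6 in wild-type replicate 2, and had no start summit in wild-type replicate 1. Col6a3 had one in stop cassette replicate 2 alone, at 19.7. Col6a6 had one in stop cassette replicate 2 at 19.7 and in wild-type replicate 1 at 16.0. Col6a4 and Col6a5 had none. The chains of type VI thus spread from high percentiles in every list to no summit at all.

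The steadiest strong start was that of Col18a1, whose product is a basement membrane collagen that releases endostatin. Its percentiles were 86.7 and 87.1 with the stop cassette against 82.8 and 85.2 in wild type, a mean of 85.4 ± 1.96 (SD, n = 4). The summits lay 15, 13, 20 and 11 bp downstream of the 5′ end (chromosome 10, 76629293, minus strand). A second start cluster 52602 bp further in had a summit in stop cassette replicate 2 alone, at 11.9. Col22a1, a collagen of tissue junctions, had percentiles of 73.8 and 92.8 against 81.0 and 87.6. Col25a1, a transmembrane collagen, ranked at 63.6 and 92.1 against 80.3 and 91.8. In both of these genes the replicate 2 values were the higher ones in each genotype. Col16a1, Col19a1 and Col23a1 were also open in all lists, and their lowest percentiles were 68.3, 63.5 and 63.0. Weaker starts open in all lists were those of Col9a2 (25.5 to 53.0), Col12a1 (8.78 to 63.3) and Col15a1 (36.8 to 66.1). Col9a3 and Col14a1 had no start summit in wild-type replicate 1, and their values elsewhere ran from 53.5 to 73.5 and from 10.8 to 45.8.

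Col9a1, a FACIT collagen of cartilage and of the eye, was open at an internal start and not at its 5′ end. The gene (ENSMUSG00000026147.9, chromosome 1, 24184449 to 24259577, plus strand) has 6 annotated starts in 4 clusters. The 2 starts at the 5′ end belong to the long protein-coding transcripts. They had no summit within 1 kb in any list, the nearest lying 17558, 17308, 17563 and 17570 bp downstream, and no list held a summit in the 5 kb before the gene. The next cluster, 17577 bp downstream, holds the starts of the short protein-coding transcripts. Its strongest summits ranked at 61.8 and 88.6 in the stop cassette lists and at 83.2 and 77.8 in the wild-type lists. They lay 17558, 18423, 18645 and 18419 bp downstream of the 5′ end. The summits closest to the first start of the cluster lay at 17558, 17572, 17563 and 17570 bp. These ranked at 61.8 and 80.6 in the stop cassette lists and at 38.6 and 70.1 in the wild-type lists. Every list thus had a summit at the short start and none at the long one, and the genotypes overlapped. A processed transcript that starts 19407 bp downstream shares the strongest summits of stop cassette replicate 2 and of both wild-type lists.

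The bases before the long and the short start of Col9a1 are shown because the lists separate them (mm9, plus strand, chr1:24184199-24184448 and chr1:24201776-24202025). Neither holds the letters of the CCAAT box, the TATA box or the GC box on either strand, so no letters are in capitals.
Col9a1 long transcripts: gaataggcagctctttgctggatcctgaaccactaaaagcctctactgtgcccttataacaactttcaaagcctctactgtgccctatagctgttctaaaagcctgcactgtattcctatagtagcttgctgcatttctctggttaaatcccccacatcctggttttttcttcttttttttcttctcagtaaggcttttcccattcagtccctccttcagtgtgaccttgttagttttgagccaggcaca
Col9a1 short transcripts: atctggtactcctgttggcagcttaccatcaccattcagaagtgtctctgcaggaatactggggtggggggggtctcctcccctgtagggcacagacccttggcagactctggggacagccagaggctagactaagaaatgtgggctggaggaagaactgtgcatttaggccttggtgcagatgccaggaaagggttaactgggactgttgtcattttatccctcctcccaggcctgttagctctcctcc

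**Figure D3:**
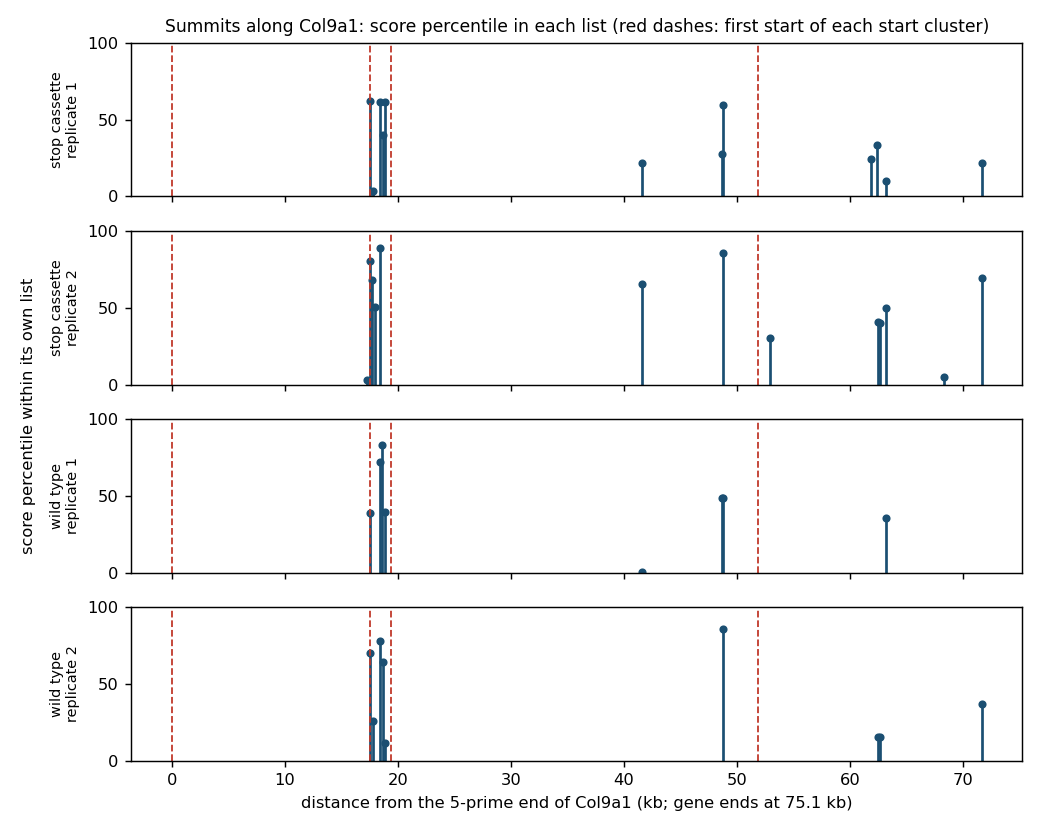
Summits over Col9a1 in the 4 lists, by distance from the annotated 5′ end (kb) and percentile in the list, with the annotated starts marked. No list has a summit at the first start, and all 4 have summits from 17308 bp downstream onwards.

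Few other internal starts of collagen genes had a summit. Starts closer than 1 kb were grouped, and 36 collagen genes had more than 1 cluster, 119 in all. Of the 83 clusters after the first, 75 had no summit in any list and 4 had one in all lists. Besides those of Col9a1, these were the second clusters of Col1a1 and Col27a1, which overlap the first. Later clusters were not counted over all protein-coding genes, so these counts cannot be set against other genes. In Col13a1, a transmembrane collagen, the 5′ end ranked at 25.2 and 51.0 with the stop cassette against 49.5 and 32.0 in wild type. A processed transcript 100716 bp further in ranked at 58.0 and 70.5 against none and 27.7. The higher stop cassette percentiles of Col13a1 given above came from this internal start, and those at its 5′ end overlapped between genotypes. In Col8a2, a short-chain collagen of the cornea and vessel walls, both stop cassette lists had a summit at the 5′ end, at 50.5 and 75.2, and neither wild-type list did. A second start of Col8a2, 13737 bp downstream, had one in 3 lists, at 27.4 and 28.2 with the stop cassette against 10.3 in wild-type replicate 1.

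The 7 genes without a start summit in any list all belong to the other types. Col10a1, the collagen of hypertrophic cartilage, had its nearest summit 28681 to 28700 bp away and no summit in its body (chromosome 10, 34109787 to 34116891, plus strand). Col7a1, which anchors the epidermis to the dermis, had its nearest summit at 3710 to 3845 bp and none in its body. Col17a1, a transmembrane collagen of epidermal hemidesmosomes, had its nearest at 3526 to 9435 bp and 7 body summits over the 4 lists. Col6a4, Col6a5 and Col20a1 had 0, 3 and 2 body summits over the 4 lists. Col28a1, which is 194.8 kb long, had 20, of which 10 were in stop cassette replicate 2. Its nearest summit was at 2017 to 16662 bp. Per 100 kb (mean of 4 lists) it held 2.57 summits, against 3.83 for Col17a1. Lists of summits above a minimum score show what was called, and an uncalled start may still have reads.

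The bases before the Col10a1 start are given for contrast with Col11a1 (mm9, plus strand, chr10:34109537-34109786). They hold the TATA box letters TATAAA, in capitals, 32 bases before the start, and no GGGCGG or CCAAT on either strand.
Col10a1: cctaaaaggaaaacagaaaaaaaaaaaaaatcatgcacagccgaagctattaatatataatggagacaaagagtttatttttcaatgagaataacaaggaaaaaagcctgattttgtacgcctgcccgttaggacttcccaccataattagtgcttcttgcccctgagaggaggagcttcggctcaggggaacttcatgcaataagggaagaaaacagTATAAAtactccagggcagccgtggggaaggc

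The limit of 1 kb decided few calls. Just inside it, with the nearest summit between 500 and 1000 bp away, were Col8a1 in stop cassette replicate 1 (635 bp) and wild-type replicate 1 (624 bp), Col8a2 in wild-type replicate 1 (722 bp) and Col14a1 in stop cassette replicate 1 (625 bp). Just outside it were Col4a6 in both wild-type lists and Col11a2 in wild-type replicate 2 (1777 bp). At 500 bp the difference between genotypes was again 4.5 genes, and at 2 kb it was 3.0.

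Collagen gene bodies held 139 and 272 summits in the stop cassette lists and 94 and 138 in the wild-type lists. The means were 205.5 ± 94.0 and 116.0 ± 31.1 (SD, n = 2 each), a difference of 89.5 with a two-sided exact permutation p of 0.333. At equal list length the counts were 72, 99, 94 and 103, and the difference was -13.0. Per 100 kb of gene, collagen genes held 2.70, 5.29, 1.83 and 2.69 summits, against 4.58, 5.87, 2.99 and 3.86 over all protein-coding genes and 3.35, 4.72, 2.15 and 2.90 over those longer than 30 kb. On average the gap to all genes lay in the start summits, but stop cassette replicate 1 kept a part of it without them. With summits within 1 kb of a gene's own starts left out, the values were 1.79, 3.85, 1.01 and 1.75 for collagen genes and 2.11, 3.17, 1.02 and 1.59 for all.

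By class, fibrillar genes held 4.03, 5.90, 2.46 and 3.34 summits per 100 kb, type IV genes 1.82, 3.35, 0.957 and 1.24, and the other types 2.57, 5.75, 1.92 and 2.96. Type IV genes were lower than the other types by 1.46 ± 0.754 on average (SD over the 4 lists), in 4 of 4 lists. With the upper 50% of each list the difference was -0.565, and 0.022 in wild-type replicate 1. With types VII, XV and XVIII counted as basement membrane it was -0.444, and 0.586 in stop cassette replicate 1. Fibrillar genes were higher than the other types by 0.637 ± 0.576. Without their own starts the difference was -0.216 ± 0.716. It was then 0.737 in stop cassette replicate 1 and -0.975, -0.448 and -0.178 in stop cassette replicate 2 and the wild-type lists. The order thus rests on start summits on average, but not in stop cassette replicate 1.

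**Figure D4:**
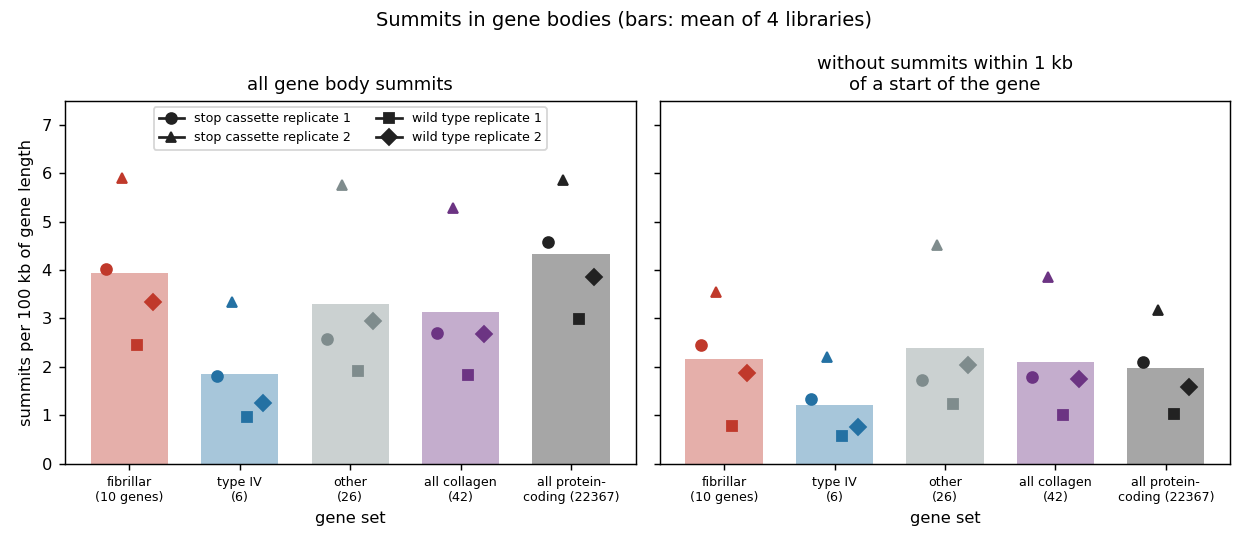
Summits per 100 kb of gene length for the collagen classes and all protein-coding genes, in each library (symbols) and as the mean of the 4 libraries (bars), with all gene body summits on the left and without summits within 1 kb of a gene's own starts on the right. Type IV genes are lowest of the collagen classes in every library on the left, from 0.957 to 3.35.

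The gene bodies differed widely. The densest were Col9a2, a partner of Col9a1 in type IX, at 25.1 summits per 100 kb (mean of 4 lists), Col9a1 at 14.0, Col8a2 at 12.7, Col1a1 at 11.9 and Col18a1 at 9.84. Col9a2 is only 15.9 kb long, and held 2 and 8 summits with the stop cassette against 3 and 3. Col1a1, at 16.8 kb, held 2 in each list, none of them away from its own starts. By number, Col19a1 had 12.75 ± 9.18 summits (9 and 26 with the stop cassette against 5 and 11), Col23a1 12.0 ± 4.97 (8 and 19 against 9 and 12) and Col18a1 11.25 ± 5.68 (15 and 17 against 5 and 8). Both stop cassette counts lay above both wild-type counts in 11 of the 42 genes (against 18.6% of all protein-coding genes), and the reverse held for 0 (against 2.62%). The gap was widest in Col5a1, with 13 and 12 against 4 and 3, followed by Col18a1. These differences are in the direction of the longer lists. The shares over all genes are an unlike base. Collagen genes are longer, with a median of 114.4 kb against 15.4 kb, and held body summits more often in each list. A share over genes longer than 30 kb alone is not given here.

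Summits within 250 bp of each other's flanks were merged across lists into 209 regions in 39 collagen genes, of which 39 were held by all 4 lists (18.7%, against 32.3% of such regions over all protein-coding genes). Away from starts, more than 1 kb from the start of any gene, 167 regions remained in 35 genes, and 161 of them lay in introns. All 4 lists held 23 (13.8%, against 16.9%). Stop cassette replicate 2 alone held 52 (against 27.0%), so a single long list supplied many. The stop cassette lists shared 12 that neither wild-type library had (against 13.0%). The reverse held for 1 region (against 0.346%), in Col23a1 (chromosome 11, 51302191 to 51302763), at percentiles 4.54 and 53.1 in wild type. Fibrillar genes held 35 regions away from starts (6 in all 4 lists), type IV genes 19 (3) and the other types 113 (14).

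The 5 highest regions away from starts, by mean percentile among those in all 4 lists, were all intronic. The first lay in Col23a1, a transmembrane collagen (chr11:51352960-51353576), 249897 bp from the gene's 5′ end, and ranked at 85.6 and 93.2 in the stop cassette lists and 80.3 and 84.3 in the wild-type lists. That is above the start of Col23a1 itself in each list, at 63.0 and 88.8 against 76.0 and 76.1. The second and the fifth lay in Col8a1, the partner of Col8a2. The second (chr16:57634164-57634775) ranked at 81.8 and 91.5 against 70.5 and 68.6, and the fifth region (chr16:57694631-57695440) at 69.4 and 86.5 against 58.1 and 77.2. The start of Col8a1 was weaker in every list, at 18.2 and 68.5 against 7.15 and 49.0. The third lay in Col4a4 (chr1:82550781-82551796) at 73.8 and 86.7 against 66.6 and 82.2, far above the shared start of Col4a3 and Col4a4. The fourth lay in Col8a2 (chr4:125986629-125987517) at 70.4 and 91.3 against 54.6 and 77.9. In the first and second regions both stop cassette values lay above both wild-type values, and in the remaining 3 the genotypes overlapped. Over all 23 collagen regions away from starts in 4 lists, the stop cassette values were the higher ones in 5 (against 39.5% of such regions over all protein-coding genes) and the lower ones in 1 (against 2.59%).

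For the first 3 of these regions, the 300 bases centred on the strongest summit are shown because a summit returned there in every list with no annotated start near it (mm9, plus strand, chr11:51353169-51353468, chr16:57634361-57634660 and chr1:82551006-82551305). Capitals mark a match, on either strand, to the core consensus of CTCF, a factor that binds at chromatin boundaries. This motif was looked for after the sequences had been seen.
Col23a1 intron: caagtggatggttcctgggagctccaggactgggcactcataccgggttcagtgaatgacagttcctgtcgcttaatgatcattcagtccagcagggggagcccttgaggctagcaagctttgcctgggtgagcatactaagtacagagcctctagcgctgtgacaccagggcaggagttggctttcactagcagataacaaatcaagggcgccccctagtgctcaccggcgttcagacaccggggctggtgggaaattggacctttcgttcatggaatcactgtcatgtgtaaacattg
Col8a1 intron: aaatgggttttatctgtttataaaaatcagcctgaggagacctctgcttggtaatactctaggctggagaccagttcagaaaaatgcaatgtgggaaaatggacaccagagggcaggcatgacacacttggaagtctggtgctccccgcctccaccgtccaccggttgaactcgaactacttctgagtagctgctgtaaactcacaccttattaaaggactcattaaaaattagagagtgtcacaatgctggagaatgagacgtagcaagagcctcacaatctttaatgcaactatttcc
Col4a4 intron: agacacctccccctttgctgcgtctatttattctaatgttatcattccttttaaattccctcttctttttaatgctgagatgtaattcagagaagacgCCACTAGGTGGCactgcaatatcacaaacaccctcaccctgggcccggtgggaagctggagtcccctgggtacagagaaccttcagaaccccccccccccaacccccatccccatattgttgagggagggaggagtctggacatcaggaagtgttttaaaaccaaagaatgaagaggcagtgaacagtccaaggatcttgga

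The core consensus stood in 1 of the 5 highest regions, that of Col4a4, and in 1 of the 23 collagen regions away from starts that all 4 lists shared (4.35%, against 7.09% of 4485 such regions over all protein-coding genes). A looser form (CA, any 2 bases, AG, any 2 bases, GGC) was also looked for after the sequences had been seen. It stood in 4 of the 5 and in 8 of the 23 (34.8%, against 17.8%). The 5 are part of the 23, so the share over the 23 is no independent count. The order of collagen regions and all regions turned with the stringency of the motif, and no conclusion is drawn from it. A match is a run of letters and no evidence of binding.

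Most vertebrate promoters that are open in many tissues are rich in CG pairs, and collagen starts were poorer in them. The observed to expected CpG ratio over 1 kb around the annotated 5′ end had a median of 0.435 for the collagen genes and 0.549 for all protein-coding genes. Among genes whose 5′ end had a summit in all 4 lists, the medians were 0.481 (n = 23) and 0.743 (n = 12108). Where no list had a summit at the 5′ end, they were 0.269 (n = 8) and 0.186 (n = 8432). The fibrillar median was 0.357 and that of type IV 0.455. Col1a2 at 0.198, Col22a1 at 0.207 and Col24a1 at 0.257 were open in all lists with low ratios, whereas Col23a1 at 0.876 and Col5a1 at 0.823 were open with high ones. Col28a1 at 0.0843 and Col20a1 at 0.0854 were the lowest, without a start summit. For Col1a2 the window is centred 679 bp upstream of its longest transcript.

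**Figure D5:**
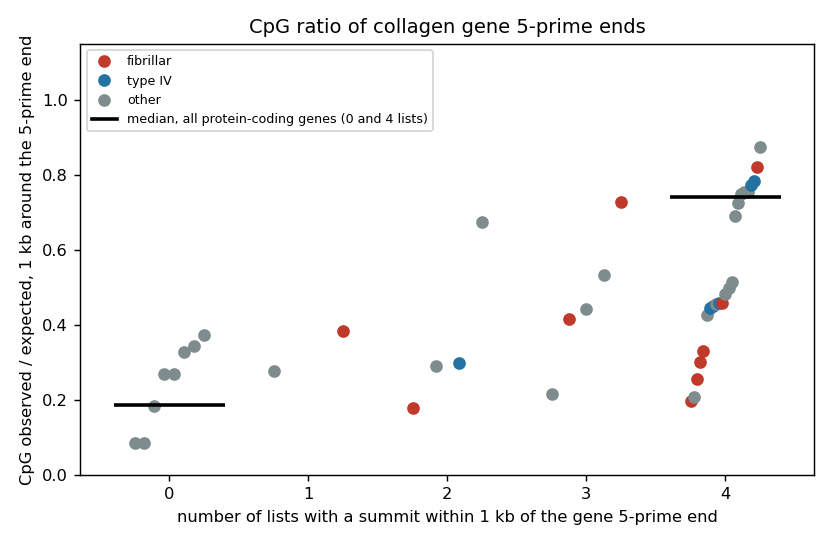
Observed to expected CpG ratio over 1 kb around the annotated 5′ end of each collagen gene, by the number of lists with a summit at the 5′ end, with the median of all protein-coding genes as a black line at 0 and 4 lists. Collagen genes open in 4 lists have a median of 0.481, below the 0.743 of all such genes.

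Motif letters in the 250 bases before the 5′ end were counted on both strands. CCAAT stood in 16 of 42 collagen genes (38.1%, against 35.0% of all protein-coding genes) and TATAAA in 5 (11.9%, against 12.3%), namely Col3a1, Col10a1, Col13a1, Col14a1 and Col17a1. GGGCGG, bound by Sp1-type factors, stood in 21 (50%, against 39.6%). Where the 5′ end had a summit in all 4 lists, GGGCGG was less frequent in collagen genes (12 of 23, 52.2%, against 61.0%). Where no list had one, it was more frequent (3 of 8, 37.5%, against 9.0%). ACAAAG of Sox factors stood in 5 (11.9%, against 15.4%), TGTGGT of Runx factors in 2 (4.76%, against 12.8%), CANNTG (the E-box) in 21 (50%, against 63.5%) and TGANTCA (AP-1) in 0 (against 6.0%).

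The genes that modify, fold, cleave, cross-link or bind collagen chains, called processing genes here, were open more often than the chains. Of 40 such genes listed, 39 were matched by symbol, among them 4 fibril-binding proteoglycans and 7 receptors. A start summit was found for 36, 37, 33 and 37 in stop cassette replicates 1 and 2 and wild-type replicates 1 and 2. In all 4 lists, 33 had one (against 57.5% of all protein-coding genes and 25 of 42 collagen genes), and each of the 39 had one in at least 1 list. The genotype means were 36.5 ± 0.707 and 35.0 ± 2.83 (SD, n = 2 each), a difference of 1.5 with a two-sided exact permutation p of 1. It was -0.5 without wild-type replicate 1 and -1.5 at equal list length. The hydroxylases of proline and lysine had the highest median percentile of the 7 roles in 3 of 4 lists, and the glycosyltransferases in the other. P4hb, a subunit of prolyl 4-hydroxylase, ranked at 97.4 and 99.8 with the stop cassette against 97.5 and 98.4 in wild type, and P4ha1, its catalytic partner, at 98.9 and 97.9 against 95.3 and 97.0. P4ha3, another catalytic subunit, had a start summit in stop cassette replicate 1 alone, at 40.8. The 7 genes of propeptide cleavage were all open in 4 lists.

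Among the chaperones, Serpinh1, which binds procollagen in the endoplasmic reticulum, ranked at 70.7 and 84.1 against 65.2 and 76.2. Of the 5 cross-linking enzymes, 3 were open in all lists, and Lox itself ranked low, at 38.9 and 59.8 against 19.5 and 27.6. The exceptions beyond those named were Loxl1 and Loxl4 (3 lists), the proteoglycan genes Bgn (2) and Fmod (1), and the receptor gene Itga10 (1).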

How the data were processed

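ATAC-seq libraries of E11.5 limb cells were described by 4 deposited peak lists, 1 per library. Per the submitters' processing notes, Bowtie2 2.2.6 and Picard were used with mm9. Peak names in the file record a mapping quality filter and the removal of duplicate and mitochondrial reads, and the peak caller is not given in the sources used here. The deposited score was read as −log10 of a q-value from its range, and was used as a rank within its own list. Summits were set against GENCODE M1 starts (mm9). The self-test on simulated summits recovered 200 of 200 planted summits at each window. Comparisons between genotypes used two-sided exact permutation tests over libraries (6 assignments), which measure only the spread between these samples. No replicate pairing could be shown from the labels.

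The genes named in the text were those of the collagen list, the listed processing genes and cell type markers. The members and lists were chosen with earlier results of these data known. Alternatives were list length, score, window, start definition, class definition, gene body definition, each library left out and a replicate block. Calculations used Python 3.11.15 with numpy 2.4.6, pandas 2.3.3, scipy 1.17.1, matplotlib 3.10.9 and samtools 1.23.1.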

Additional observations from a re-analysis of the deposited data

How the results depend on the processing

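Differences between genotypes were judged by sign alone. Class and background differences were also counted as moved when they shifted by the SD over the 4 lists or more. With all libraries kept, 46 of 64 alternative values stayed by these rules, 11 moved and 7 changed sign. Of the 26 genotype values, 23 stayed and 3 changed sign. They include the replicate block, which gives the same differences by construction. Of the 38 class and background values, 23 stayed, 11 moved and 4 changed sign. With 1 library left out, 38 of 40 stayed and 2 changed sign. For class and background differences, leaving out 1 library cannot shift the mean by as much as the SD. Each of these means was also larger in size than its SD. By these rules they could thus neither move nor change sign, and their part of the count is no check. The genotype differences were judged by sign alone, so a change in size counted as stayed. The lists hold no read counts, so what depth limits is unknown, and the causes of the shifts and sign changes were not tested.

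At equal list length, the difference between genotypes became -2.0 collagen genes with a start summit, -13.0 body summits and -1.5 processing genes. The type IV share minus that of the other types became 15.1 percentage points and the collagen share minus that of all genes 5.28. With the upper 50% of each list, these were 10.9 and -3.37, the fibrillar share difference was 31.7, and the type IV body density difference was -0.565 per 100 kb. With a score above 5, the type IV share difference was 13.5, its density difference -0.684 and the collagen share difference -0.246. A 2 kb window gave a type IV share difference of 35.6. Counting types VII, XV and XVIII as basement membrane gave 19.2 percentage points and -0.444 per 100 kb. Without own starts, the fibrillar density difference was -0.216 and that of collagen against all genes 0.133. Counting summits closer than 500 bp once gave -0.608 for the latter.

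Leaving out each library in turn gave ranges of 2.5 to 6.5 collagen genes with a start summit, 23.0 to 156.0 body summits, -15.1 to 5.29 percentile points (5.29 without stop cassette replicate 1) and -0.5 to 3.5 processing genes (-0.5 without wild-type replicate 1). The share differences ranged from 17.9 to 23.3 (fibrillar), 24.8 to 29.1 (type IV) and 9.11 to 13.7 (collagen against all), and the density differences from 0.360 to 0.798, -1.69 to -1.14 and -1.40 to -0.972.

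With the replicate number as a block, the mean differences are by construction the same, 4.5 genes, 89.5 body summits and -4.92 percentile points. They are thus no further check (exact sign-flip p of 0.5, 0.5 and 1, the smallest possible being 0.5). The libraries share only a number. The correlation between deviations across the 42 genes was 0.435. With 2 libraries a genotype both pairs must give the same value, so it is a single number and cannot show pairing. Replicate 2 also had the longer list in each genotype, and a part played by list length was not tested.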

Other observations

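In the collagen regions away from starts that all 4 lists held, the AP-1 letters TGANTCA stood in 0 of 23, against 8.76% of such regions over all protein-coding genes. The Runx letters TGTGGT stood in 5 (21.7%, against 21.3%) and the Sox letters ACAAAG in 4 (17.4%, against 22.1%). In the 77 collagen regions held by 1 list, the AP-1 letters stood in 11 (14.3%, against 10.8%). These shares were counted on both strands in 300 bases around each summit and carry no test.

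In Col9a1, a second region shared by all 4 lists lay in an intron (mm9 chromosome 1, 24232844 to 24233500), at percentiles 59.7 and 85.9 with the stop cassette against 48.8 and 85.8 in wild type. The third (24246635 to 24247930) ranked at 33.6 and 49.8 against 35.7 and 15.5. Col19a1, a FACIT gene with 14 regions away from starts, had 2 in all 4 lists. The stronger (chromosome 1, 24309471 to 24310215) ranked at 36.8 and 88.0 against 72.8 and 82.7.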
